A study of Homo sapiens with 9 samples.

Results

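The AP-1 factors examined here were FOS, FOSB, FOSL1, FOSL2, JUN, JUNB, JUND, ATF3, BATF3 and MAFF. They were taken by gene name from the annotation of a human gene expression array, which gave 10 genes and 13 probes of the 50598 probes on the array. ATF3 had 4 probes, every other gene had 1, and the MAFF probe was spotted 10 times. All 13 probes were well above background on all 9 arrays. The arrays compared 3 lines of HEK293, a cell line of human embryonic kidney origin, that stably expressed HA-tagged MEK1, the kinase that phosphorylates and activates ERK. The control line carried wild-type MEK1 (WT), the second carried the F53S mutant found in RASopathies, which are congenital disorders of the RAS and ERK pathway, and the third carried K57N, a mutant found in sporadic cancers. All lines were selected with puromycin and kept in serum under steady-state conditions, so each also had its own MEK1. There were 3 arrays per line. No separately derived lines of the same mutation are named in the sources used here, so that the mutation and other differences between lines cannot be told apart, and p-values measure only the spread between these arrays.

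AP-1 is a dimer of basic leucine zipper proteins. FOS proteins do not pair with themselves and bind DNA with a JUN partner, whereas JUN proteins also pair with one another. FOS, FOSB, JUN and JUNB are classical immediate-early genes that growth factors switch on. For FOS and FOSB this runs through ERK, ternary complex factors such as ELK1 and serum response factor, and FOSL1 follows when ERK signaling persists. JUND is expressed more evenly and is less dependent on growth factors. ATF3 responds to many kinds of stress, and BATF3 is a small AP-1 factor best known from dendritic cells. MAFF is a small MAF protein without an activation domain of its own, and it is commonly grouped with factors of the NFE2 family.

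Each probe was a 60-base stretch of one transcript. JUNB and JUND, one of the pairs with unequal change in the JUN family, are shown on the transcript strand, with the longest run of bases the 2 probes had in common, 6 bases, in capitals. The annotation placed the JUNB probe at chr19:12902998-12903057 of hg19 on the plus strand, from base 688 of its transcript, and the JUND probe at chr19:18391371-18391430 on the minus strand, from base 1002.
JUNB: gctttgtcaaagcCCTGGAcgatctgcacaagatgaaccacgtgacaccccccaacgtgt
JUND: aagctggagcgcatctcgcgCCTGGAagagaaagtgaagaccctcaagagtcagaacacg
Among all 13 probes the longest shared run was 13 bases, between the FOSB and JUN probes. The FOSB and JUN values nevertheless differed in pattern.

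Levels are log2 signals relative to the 75th percentile of the same array, and a level is comparable between arrays for one probe but not between probes. Slide 1 held the first replicate of each line, and slide 2 held replicates 2 and 3. Lower RNA of a gene per cell and a smaller share of cells with that RNA cannot be told apart in these bulk samples. The 75th percentile was 245 to 376 units of processed signal on slide 1 and 695 to 821 on slide 2, and 23711 to 26110 probes against 27114 to 29319 were well above background. A gene was called when limma, adjusted over all probes, gave p below 0.05 and the difference exceeded 2-fold. The MEK1 gene itself, MAP2K1, read 2.34 to 2.42 in WT, 2.39 to 2.504 in F53S and 2.81 to 2.92 in K57N, and was not called (0.48 ± 0.13 SE in K57N against WT, adjusted p = 0.135, limma). Whether its probe reads the introduced MEK1 is not known. Of 7 genes typical of HEK293 cells, 6 were well above background on all 9 arrays, and the summed linear level of the 7 was 249 to 305 times the 75th percentile in WT, 257 to 385 in F53S and 337 to 398 in K57N. The summed level of 5 fibroblast markers was 0.840 to 1.40 times the 75th percentile in WT, 0.788 to 1.12 in F53S and 0.447 to 0.502 in K57N. Only COL1A1 of the 5 was well above background on all 9 arrays, and DCN and PDGFRB were not in any sample. In the same order of lines, leukocyte markers summed to 0.865 to 1.64, 0.871 to 1.51 and 0.975 to 1.15. Those of endothelium summed to 0.283 to 0.550, 0.274 to 0.473 and 0.295 to 0.351. The part of any such difference in the results below was not tested.

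K57N cells had 6 of the 10 AP-1 genes called higher, compared with WT, and none called lower. JUNB rose 20.9-fold, FOSB 13.8-fold, FOS 11.1-fold, MAFF 8.46-fold, FOSL1 7.11-fold and BATF3 2.55-fold. The folds depended on the background correction: under normexp, with the same 6 genes called, the log2 difference was 3.68 instead of 4.39 for JUNB, 2.85 instead of 3.79 for FOSB, 2.48 instead of 3.47 for FOS and 2.10 instead of 3.08 for MAFF. FOSL2, JUN, JUND and ATF3 were not called. Over all 19107 genes tested, 1.52% were called higher and 0.738% lower in this comparison. The median log2 difference was 2.09 over the 10 AP-1 genes and -0.06 over all genes. Ranked by log2 difference among all genes tested, JUNB was at place 25, FOSB at 45, FOS at 61, MAFF at 78, FOSL1 at 102 and BATF3 at 326. The same 6 genes were called with the slide as a block, where 2.56% of all genes were called higher, and on the slide 2 arrays alone.

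**Figure D1:**
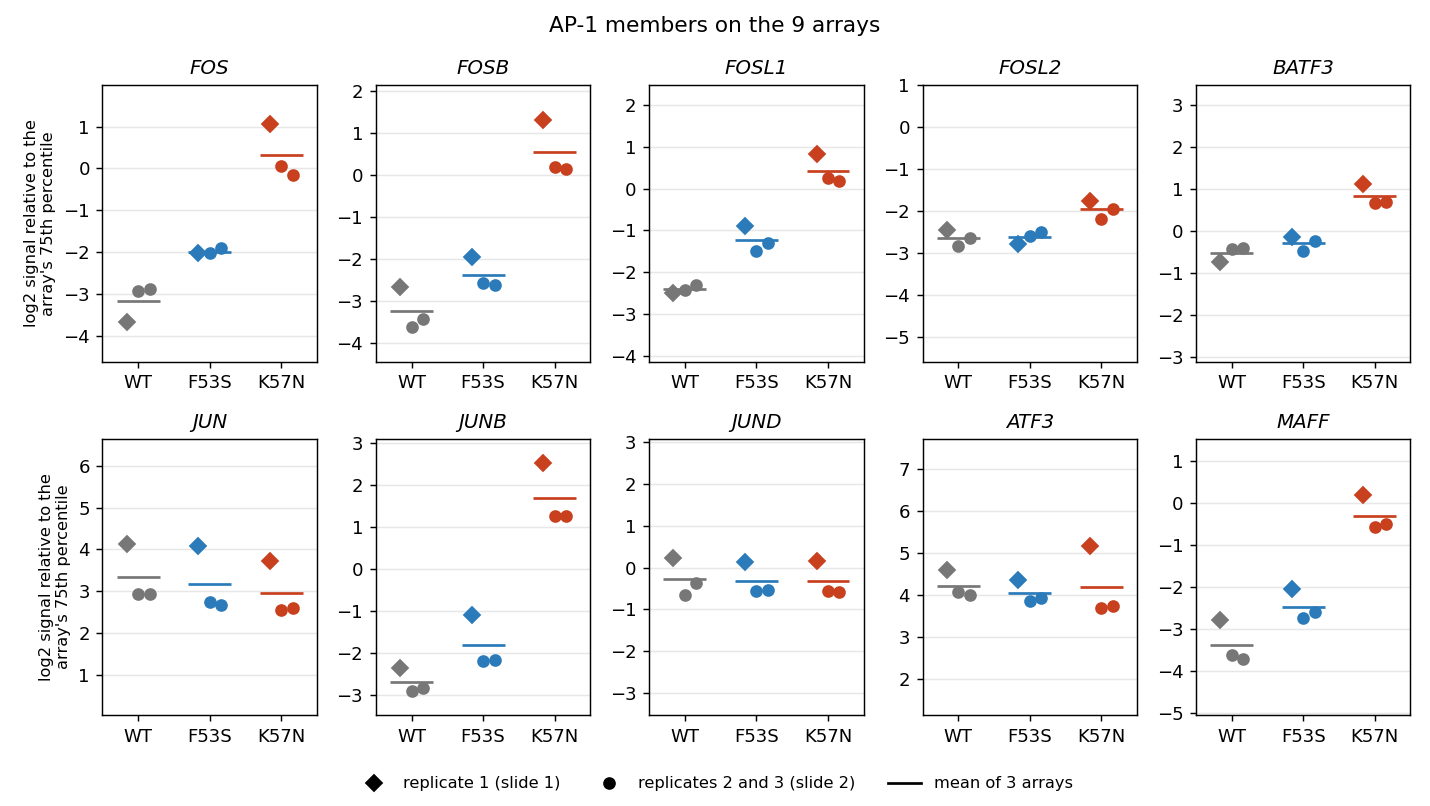
Each panel plots the log2 signal of 1 AP-1 gene, relative to the 75th percentile of its array, on the 9 arrays (diamonds, replicate 1 on slide 1; circles, replicates 2 and 3 on slide 2; lines, the mean of 3 arrays), and every panel spans the same log2 range. K57N lies above the other 2 lines for 7 genes, whereas JUN, JUND and ATF3 overlap between all lines.

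Within the FOS family, FOS and FOSB encode full-length activators. FOS (chr14:75748214-75748273, hg19) read -3.67, -2.92 and -2.87 on the WT arrays, -2.02, -2.02 and -1.91 on the F53S arrays and 1.05, 0.05 and -0.16 on the K57N arrays. The 3 lines were fully separated, with the lowest K57N array 2.71 above the highest WT array. The log2 difference between K57N and WT was 3.47 ± 0.34 (SE, n = 3 arrays per line, adjusted p = 0.00176, limma), but it was 4.72 on slide 1 and 2.84 on slide 2. On slide 1 the WT array was the lowest and the K57N array the highest of their lines. FOSB (chr19:45978205-45978264) read -2.67, -3.62 and -3.43 in WT, -1.95, -2.58 and -2.63 in F53S and 1.31, 0.18 and 0.15 in K57N. Again no array of one line fell among those of another, although the F53S and WT arrays came within 0.05 of each other. FOSB in K57N exceeded WT by 3.79 ± 0.39 (adjusted p = 0.00214, limma), with 3.98 on slide 1 and 3.69 on slide 2.

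FOSL1 and FOSL2 encode the FOS-related antigens FRA1 and FRA2, which lack the strong activation domain of FOS. FOSL1 (chr11:65660098-65660157) read -2.49, -2.42 and -2.31 in WT, -0.90, -1.48 and -1.29 in F53S and 0.82, 0.26 and 0.19 in K57N. Its WT arrays lay within 0.18 of one another and its 3 lines were fully separated. The K57N difference from WT was 2.83 ± 0.23 (adjusted p = 6.35e-04, limma), the smallest adjusted p of the 10 genes, with 3.31 on slide 1 and 2.59 on slide 2. FOSL2 (chr2:28637175-28637234) read -2.44, -2.83 and -2.65 in WT, -2.78, -2.58 and -2.50 in F53S and -1.75, -2.17 and -1.95 in K57N. All K57N arrays were above all WT and F53S arrays, by 0.26 at the closest, while F53S and WT overlapped. FOSL2 differed by 0.68 ± 0.18 between K57N and WT and was not called (adjusted p = 0.113). With the slide as a block its adjusted p was 0.0172, at a size of 1.60-fold, under the 2-fold required.

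The JUN family split. JUNB (chr19:12902998-12903057), which pairs with FOS proteins and is a weaker activator than JUN, read -2.37, -2.90 and -2.83 in WT, -1.09, -2.20 and -2.17 in F53S and 2.51, 1.27 and 1.27 in K57N. Its K57N arrays were at least 3.63 above every WT array, the widest gap among the 10 genes. The difference between K57N and WT was 4.39 ± 0.42 (adjusted p = 0.00155, limma), with 4.88 on slide 1 and 4.14 on slide 2.

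JUN itself (chr1:59246511-59246570), the main partner of FOS, read 4.14, 2.94 and 2.95 in WT, 4.09, 2.74 and 2.68 in F53S and 3.73, 2.55 and 2.60 in K57N. The slide 1 array was the highest in each line, by 1.15 to 1.38 over the mean of slide 2, and the lines overlapped. On each slide, however, K57N was lower than WT, by a log2 difference of -0.42 on slide 1 and -0.37 on slide 2. The difference was -0.39 ± 0.51 (adjusted p = 0.922) without the slide in the fit and -0.39 ± 0.09 (adjusted p = 0.0207) with it, which is 1.31-fold and was not called. JUND (chr19:18391371-18391430) read 0.22, -0.66 and -0.38 in WT, 0.13, -0.56 and -0.54 in F53S and 0.15, -0.56 and -0.58 in K57N. These values overlapped throughout. Its K57N difference of -0.05 had a 95% interval of -0.28 to 0.17 with the slide as a block, and an adjusted p of 0.725.

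ATF3 was read by 4 probes, which differed in level and are described by the one with the highest signal (chr1:212793856-212793915). It read 4.60, 4.08 and 3.997 in WT, 4.37, 3.85 and 3.94 in F53S and 5.17, 3.70 and 3.75 in K57N. The highest and the lowest of the 9 values were thus both from the K57N line, and the lines overlapped. ATF3 differed by -0.02 ± 0.39 between K57N and WT (adjusted p = 0.996), with 0.57 on slide 1 and -0.31 on slide 2. On slide 2 alone the adjusted p was 0.0457 at 1.24-fold, under the 2-fold required. Of the other probes, A_24_P33895 and A_33_P3214105 were also highest on replicate 1 among the K57N arrays, at 0.70 and 0.88 and the other replicates between -0.75 and -0.36. The probe A_33_P3214096 departed from these, with -0.97, -0.71 and -2.15 in K57N. Of 11 genes of the ATF4 pathway, which responds to stress, all 11 were highest on replicate 1 among the K57N arrays, as were 9 among the WT arrays and 9 among the F53S arrays. Replicate 1 was the slide 1 array of every line, and JUN and JUND were also highest on it in each line. The share of all genes highest on replicate 1 was not counted. These counts therefore cannot be called particular to this pathway. DDIT3, a stress-induced factor of this list, read 3.61 on K57N replicate 1 against -0.34 and -0.41 on the others, and -0.26, -0.79 and -0.69 in WT. The part of that array in the ATF3 values was not tested beyond leaving it out, which gave -0.50.

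BATF3 and MAFF stand outside the FOS and JUN families. BATF3 (chr1:212860028-212860087) read -0.75, -0.43 and -0.42 in WT, -0.15, -0.49 and -0.26 in F53S and 1.104, 0.65 and 0.69 in K57N. The K57N arrays were clear of both other lines, which overlapped each other. The BATF3 difference between K57N and WT was 1.35 ± 0.19 (adjusted p = 0.0101, limma), the smallest of the 6 that were called, with 1.86 on slide 1 and 1.099 on slide 2. MAFF (chr22:38611984-38612043) read -2.79, -3.63 and -3.70 in WT, -2.05, -2.73 and -2.60 in F53S and 0.19, -0.57 and -0.50 in K57N. Its lines were separated, by 0.06 between WT and F53S and by 2.22 between WT and K57N. MAFF rose by 3.08 ± 0.33 (adjusted p = 0.00257, limma), with 2.98 on slide 1 and 3.13 on slide 2, the closest match between slides among the called genes.

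**Figure D2:**
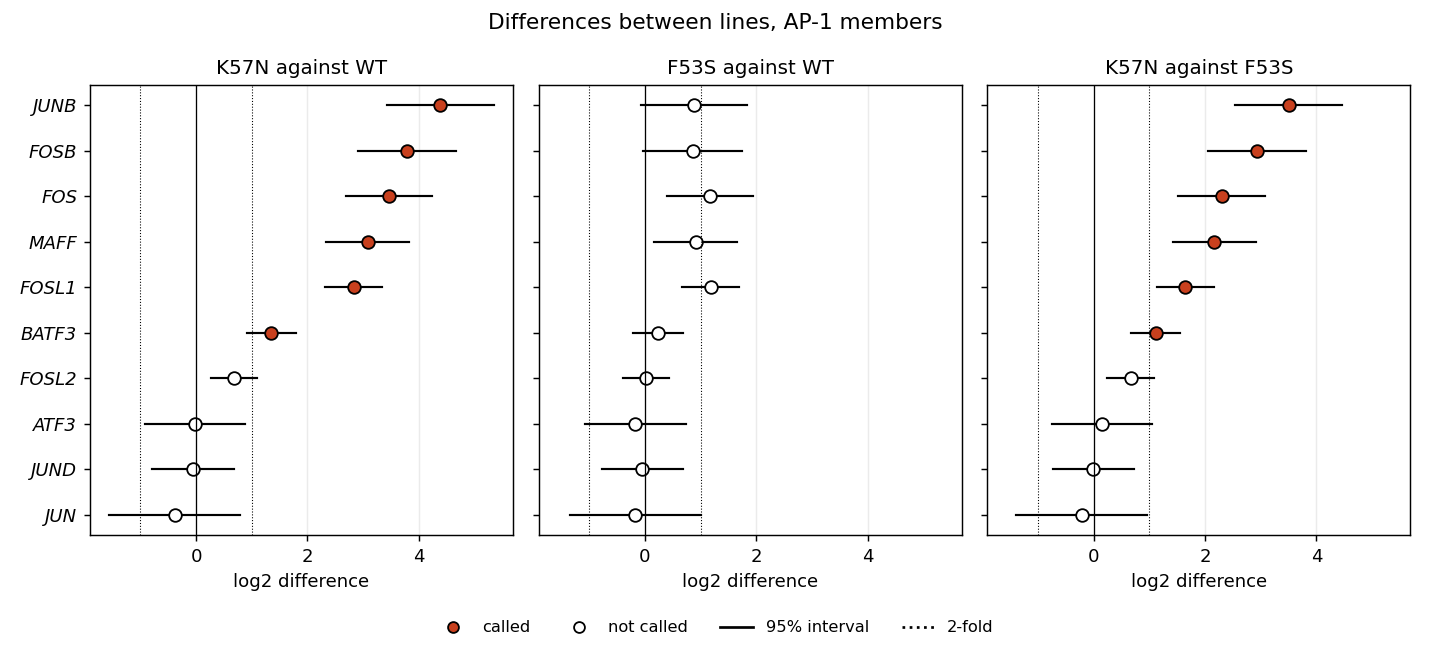
Log2 differences between lines for the 10 AP-1 genes (points; filled where called) with 95% intervals from the limma fit over 9 arrays, in K57N against WT, F53S against WT and K57N against F53S; dotted lines mark 2-fold. The 6 called genes are the same in both K57N comparisons, and no gene is called in F53S against WT.

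The unequal change within families was compared directly, as the change in the difference of 2 log2 levels between K57N and WT, for all 9 pairs of FOS or JUN family members. With 3 arrays against 3, the exact permutation test cannot give p below 0.10, so that no pair could be called. For 7 of the 9 pairs p was at this floor (two-sided, adjusted p = 0.129 over the 9 pairs). At this floor the K57N and WT arrays of a pair do not overlap. All of these pairs except FOS with FOSL1 and FOSB with FOSL1 set a called gene against one that was not. The pairs also reuse the same genes, and the share over gene pairs in general was not computed. The JUNB and JUND pair differed by 4.44, and the JUN and JUNB pair by -4.77. FOSB changed by 3.11 more than FOSL2, FOS by 2.79 more and FOSL1 by 2.15 more. For FOS with FOSL2 the change was 4.03 on slide 1, 2.16 on slide 2 and 2.10 under normexp. FOS changed by 0.64 more than FOSL1 (1.41 on slide 1, 0.25 on slide 2, 0.21 under normexp). FOSB changed by 0.96 more than FOSL1 (0.59 under normexp). Under normexp the JUNB and JUND pair differed by 3.69 and the JUN and JUNB pair by -4.02. The pairs whose arrays overlapped were FOS with FOSB (-0.32, exact p = 0.50) and JUN with JUND (-0.33, exact p = 0.20). For FOS and FOSB the sign differed between slides, with 0.74 on slide 1 and -0.85 on slide 2, whereas for JUN and JUND it was the same, with -0.35 and -0.32. The permutation test did not use the pairing of arrays by replicate number.

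In F53S cells no AP-1 gene was called higher or lower than in WT cells, and neither was any other gene (0% of 19107 called higher and 0% lower in limma; 0% higher with the slide as a block). Over all genes limma called 3 higher without WT replicate 1 and 1 under normexp, none of them an AP-1 gene. Without adjustment, at the same limits on p and fold, limma called 2 AP-1 genes higher, FOS and FOSL1, among 38 genes in all, and the methods' t-test called the same 2 among 24. Every F53S array was nevertheless above every WT array for 5 of the 10 genes, FOS, FOSB, FOSL1, JUNB and MAFF. Over all genes tested, 1.54% had their F53S arrays above their WT arrays in this way. The log2 differences were 1.18 ± 0.23 for FOSL1, 1.17 ± 0.34 for FOS, 0.91 ± 0.33 for MAFF, 0.88 ± 0.42 for JUNB and 0.86 ± 0.39 for FOSB, each with an adjusted p of 1.0 (limma). Under normexp they were 0.82, 0.67, 0.51, 0.56 and 0.51 in the same order, and without F53S replicate 1 that of JUNB was 0.52. The FOS difference was 1.65 on slide 1 and 0.93 on slide 2. With the slide as a block the adjusted p was 0.0835 for MAFF, 0.145 for FOSL1 and FOSB, 0.229 for JUNB and 0.907 for FOS. For BATF3 (0.24), FOSL2 (0.02), JUND (-0.05), ATF3 (-0.17) and JUN (-0.17) the F53S and WT arrays overlapped.

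As these 5 genes had every F53S array above every WT array, the differences between arrays of the same replicate number had to be positive. The smallest log2 difference of this kind was 0.66, that of JUNB in replicate 3. Both F53S and K57N were set against the same WT arrays, so the 2 comparisons are not independent of each other. Side by side, FOSL1 differed from WT by 1.18 in F53S and 2.83 in K57N, FOS by 1.17 and 3.47, MAFF by 0.91 and 3.08, JUNB by 0.88 and 4.39 and FOSB by 0.86 and 3.79.

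**Figure D3:**
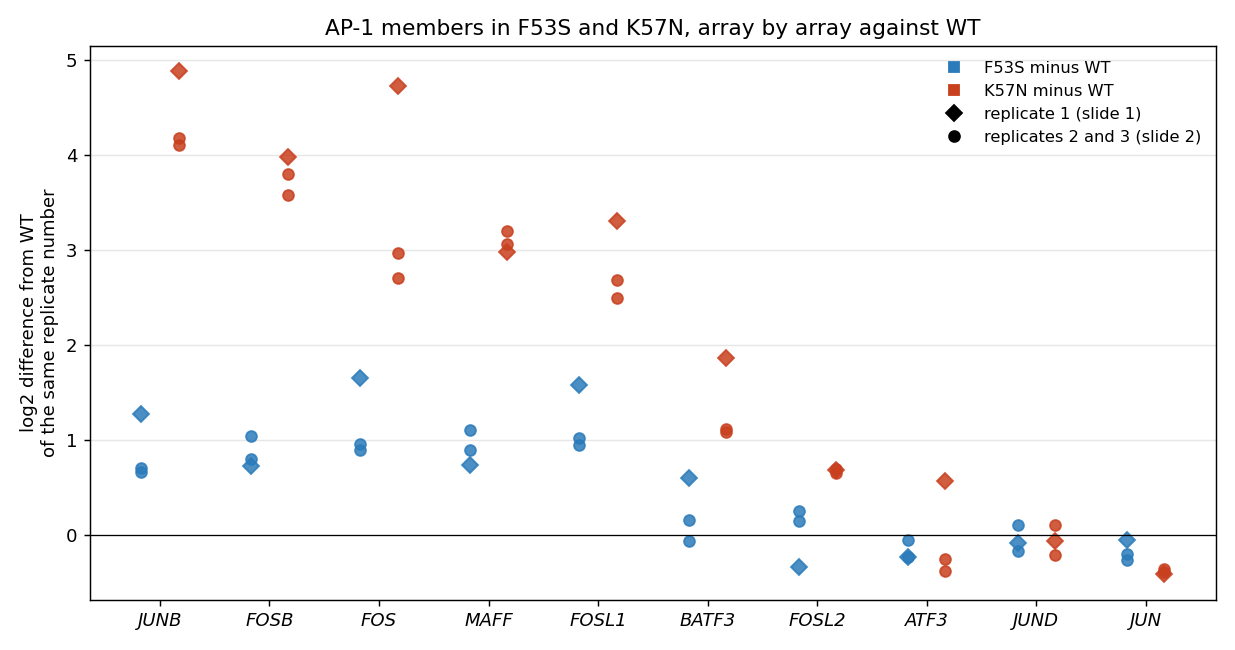
Log2 difference of each F53S array (blue) and each K57N array (red) from the WT array of the same replicate number, for the 10 AP-1 genes (diamonds, replicate 1 on slide 1; circles, replicates 2 and 3 on slide 2). For JUNB, FOSB, FOS, MAFF and FOSL1 all 3 F53S points lie above 0 and below all 3 K57N points of the same gene, and the JUN points lie below 0 in both lines.

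Compared with F53S, K57N cells had higher JUNB, FOSB, FOS, MAFF, FOSL1 and BATF3, the same 6 genes as against WT. The differences were 3.50 ± 0.42 for JUNB (adjusted p = 0.00837), 2.93 ± 0.39 for FOSB (0.0111), 2.30 ± 0.34 for FOS (0.0201), 2.17 ± 0.33 for MAFF (0.0213), 1.65 ± 0.23 for FOSL1 (0.0134) and 1.12 ± 0.19 for BATF3 (0.0368; all limma). Over all genes tested, 0.958% were called higher and 0.246% lower. Every K57N array was above every F53S array for 7 of the 10 genes, the 6 called and FOSL2, against 8.31% of all genes, as it was for the same 7 against WT, where the share of all genes was 10.2%. With the slide as a block the 6 genes were called again, among 1.89% of all genes. The count was 4 under normexp, 3 when only these 2 lines were fitted, 1 without the filter on dim probes and 0 with the methods' t-test after adjustment. It was also sensitive to single arrays: without F53S replicate 2 or F53S replicate 3 it was 1, JUNB in each case, and without K57N replicate 2 it was 2, FOSB and JUNB. The higher calls over all genes numbered 183 with all arrays and 70, 66 and 76 without these arrays in turn. Against WT, in contrast, all 6 were called whichever of the 9 arrays was left out.

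The promoters of the members could be set beside these values for 8 of the 10 genes, with 10 entries in RefSeq on GRCh38.p14, where ATF3 and MAFF had 2 starts each. FOSL1 and BATF3 had no entry. The 250 bases before the start are shown for 4 genes called in K57N and for the 2 JUN family genes that were not, read 5′ to 3′ on the gene's strand. Capitals mark TGACG, the core of the cAMP response element, on either strand, and TATAAA, one form of the TATA box.
FOS (chr14:75278578-75278827, plus strand): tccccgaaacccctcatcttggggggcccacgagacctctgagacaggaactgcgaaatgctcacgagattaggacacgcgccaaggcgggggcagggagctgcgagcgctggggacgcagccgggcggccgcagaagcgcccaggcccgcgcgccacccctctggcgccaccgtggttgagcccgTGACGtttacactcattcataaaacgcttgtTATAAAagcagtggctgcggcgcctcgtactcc
FOSB (chr19:45467746-45467995, plus strand): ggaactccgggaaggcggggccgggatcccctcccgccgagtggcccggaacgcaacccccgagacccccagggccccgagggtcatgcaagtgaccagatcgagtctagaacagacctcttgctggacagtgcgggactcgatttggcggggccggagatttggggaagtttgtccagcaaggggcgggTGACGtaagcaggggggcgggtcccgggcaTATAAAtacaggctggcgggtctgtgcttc
JUNB (chr19:12791236-12791485, plus strand): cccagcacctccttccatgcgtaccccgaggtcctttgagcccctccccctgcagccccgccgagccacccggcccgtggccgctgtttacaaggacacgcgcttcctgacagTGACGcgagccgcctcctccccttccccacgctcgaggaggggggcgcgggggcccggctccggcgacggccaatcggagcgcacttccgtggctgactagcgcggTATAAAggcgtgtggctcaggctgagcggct
MAFF, first entry (chr22:38201744-38201993, plus strand): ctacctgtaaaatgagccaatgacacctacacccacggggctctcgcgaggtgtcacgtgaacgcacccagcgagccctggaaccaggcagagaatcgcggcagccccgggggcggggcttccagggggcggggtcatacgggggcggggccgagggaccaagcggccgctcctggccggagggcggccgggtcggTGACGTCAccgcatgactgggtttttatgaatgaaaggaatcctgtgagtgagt
JUN (chr1:58784048-58784297, minus strand): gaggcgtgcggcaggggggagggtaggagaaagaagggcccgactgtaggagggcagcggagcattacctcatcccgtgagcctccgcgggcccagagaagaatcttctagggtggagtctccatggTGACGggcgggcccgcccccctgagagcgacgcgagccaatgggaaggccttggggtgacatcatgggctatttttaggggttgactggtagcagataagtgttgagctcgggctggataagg
JUND (chr19:18281623-18281872, minus strand): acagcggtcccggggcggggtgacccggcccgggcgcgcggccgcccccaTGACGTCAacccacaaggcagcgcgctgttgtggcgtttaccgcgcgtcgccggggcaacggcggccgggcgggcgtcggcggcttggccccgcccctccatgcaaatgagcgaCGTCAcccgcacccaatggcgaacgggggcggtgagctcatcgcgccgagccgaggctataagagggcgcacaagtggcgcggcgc
TATAAA stood 33 bases before the start in FOS, 30 in FOSB and 31 in JUNB, on the gene's strand in each, and was not in the window of JUN, JUND, FOSL2 or MAFF. Only these exact letters were searched, and the JUND window holds the related tataag near its end. Of all 35116 promoter windows of this length, 10.7% held TATAAA on either strand, and the only other member entry with it was the second of ATF3, at 230 bases. TGACG was in 7 of the 10 member entries against 21.2% of all windows. FOS had it at 64 bases before the start and FOSB at 60, but JUN and JUND had it too. The full TGACGTCA, which contains TGACG on both strands, was in JUND and in the first MAFF entry and in 1.65% of all windows. GGGCGG, the GC box, was in 8 of the 10 entries against 42.6%. Neither TGACTCA, the AP-1 site (4.2% of windows), nor the CArG box bound by serum response factor (1.16%) was in any of the 10 entries, which says only that these letters were not in this window.

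A list of 26 textbook AP-1 target genes was examined next, of which 21 were tested. In K57N against WT, 11 of the 21 were called higher and none lower, where 1.52% of all genes were called higher, with a median log2 difference of 1.84, or 1.11 over the 16 well above background on all 9 arrays, against -0.06 over all genes. In F53S against WT none of the 21 was called, with a median of 0.23, and in K57N against F53S 10 were, where 0.958% of all genes were. The AP-1 site is a classical feature of the promoters of matrix metalloproteinases, and 4 of these enzymes were called in K57N, 3 of them from WT signals that were not well above background on most or all WT arrays. MMP1, interstitial collagenase, read -5.66, -3.95 and -4.09 in WT, where 2 of the 3 arrays were well above background, -1.94, -1.92 and -1.97 in F53S and 5.54, 5.31 and 5.33 in K57N. The 3 lines were fully separated. The fitted MMP1 difference in K57N was 9.96 (adjusted p = 3.42e-05, limma), and its F53S difference of 2.62 was not called (adjusted p = 0.654).

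For MMP10, a stromelysin, none of the WT arrays was well above background, and K57N was at least 32.5-fold higher. For MMP3, another stromelysin, neither WT nor F53S had an array well above background, and K57N was at least 3.45-fold higher than WT. MMP13 was well above background on 1 of the 3 WT arrays, so that its fitted difference of 3.83 (adjusted p = 0.00628, limma) is not a measured size. These bounds compare the K57N mean with, on each WT array, the higher of the probe's own value and the lowest signal called well above background. The adjusted p of the fit was 3.42e-05 for MMP10 and 0.0155 for MMP3 (limma), each computed with WT signals not well above background.

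Among the other called targets, the cytokine IL11 had a fitted difference of 6.29 with 2 of its 3 WT arrays well above background. The metalloproteinase inhibitor TIMP1 differed by 3.82 ± 0.45, the membrane protein EMP1 by 2.85 ± 0.15 and the growth factor TGFB1 by 2.67 ± 0.22. PLAUR and PLAU, the urokinase receptor and urokinase, differed by 2.63 ± 0.34 and 2.03 ± 0.35, and the hyaluronan receptor CD44 by 1.37 ± 0.17. With the slide as a block 13 were called, against 2.56% of all genes, with LIF (1.84, adjusted p = 6.29e-05) and DUSP1 (1.60, adjusted p = 0.00348) added. EZR, which encodes ezrin, differed by 0.03 (adjusted p = 0.989) and VIM, which encodes vimentin, by -0.03 (0.990; limma). Since MMP3, MMP10 and MMP13 passed the filter through K57N alone, the count was also taken over genes well above background on all 9 arrays, where 6 of 16 were called against WT and 5 of 16 against F53S. The shares of all genes under this filter were 0.979% and 0.584%.

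**Figure D4:**
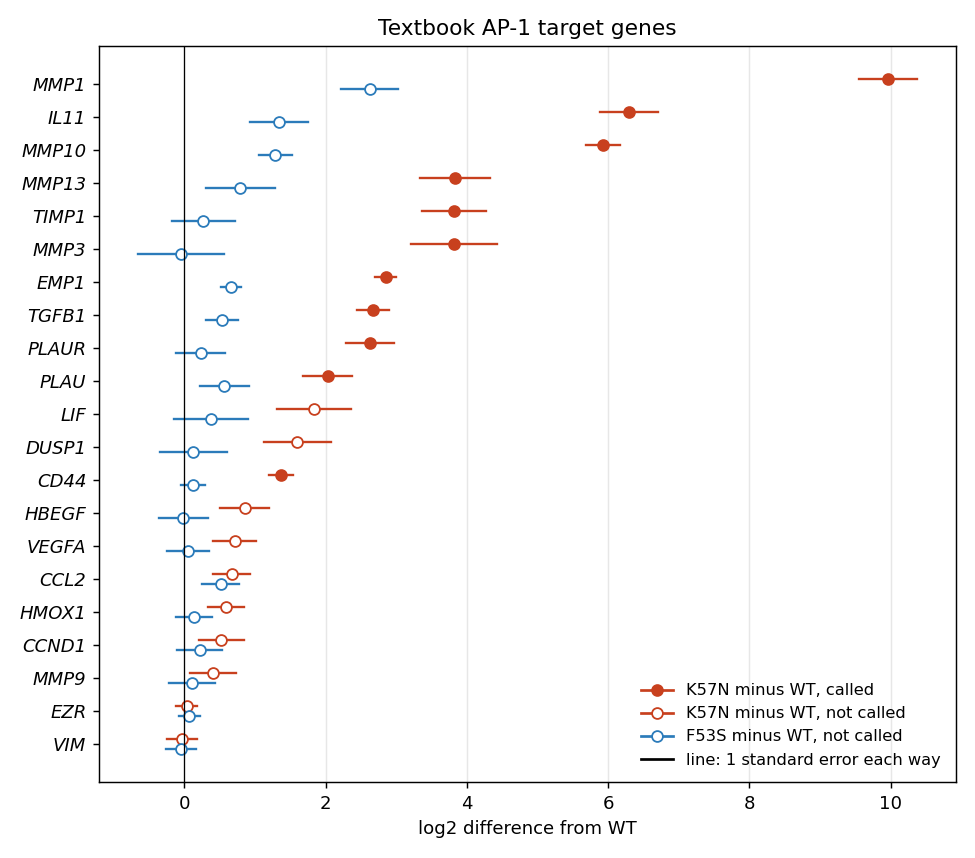
Log2 differences from WT of the 21 tested AP-1 target genes in K57N (red) and F53S (blue), with 1 standard error each way from the limma fit; filled points were called. In WT, none of the 3 arrays was well above background for MMP10 and MMP3, 1 for MMP13 and 2 for MMP1 and IL11, so their points are fitted values and not measured sizes. EZR and VIM lie near 0 in both lines.

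Of 18 other AP-1 and small MAF partners, 16 were tested and none was called in any comparison, with a median of 0.11 in K57N against WT. With 1.52% of all genes called higher and 0.738% lower in that comparison, a count of 0 in a list of this size is near the background. JDP2, a repressor that pairs with JUN, read 0.35, 0.66 and 0.40 in WT, 0.19, 0.17 and 0.20 in F53S and 0.12, -1.21 and -1.08 in K57N. It was below all WT arrays on every K57N array, by a log2 difference of -1.20 ± 0.33 (adjusted p = 0.120), and with the slide as a block it was called lower (adjusted p = 0.0256), the 1 partner of 16 that this fit called, against 1.96% of all genes called lower in it. Of 22 kinases and regulators upstream of AP-1, 21 were tested and 1 was called in K57N against WT, with a median of -0.02. That gene was ELK3, a ternary complex factor, at 1.11 ± 0.18 (adjusted p = 0.0154, limma), well above background on 7 of the 9 arrays. It passed the filter on dim probes through K57N alone, and of the 19 regulators well above background on all 9 arrays none was called, against 0.979% of all such genes called higher.

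The patterns of the called members over the 9 arrays resembled one another, after the mean of each slide was subtracted. Pearson's r with FOS was 0.97 for FOSB, 0.98 for FOSL1, 0.97 for JUNB, 0.98 for BATF3 and 0.96 for MAFF, and that of FOSB with JUNB was 0.996. JUN ran the other way, with r of -0.95 to -0.88 against these 6 genes, while JUND and ATF3 had r of -0.28 to 0.24. FOSL2, which was not called, had r of 0.82 to 0.91 with the same 6 genes. These values describe 9 arrays from 3 lines that share the same slides, and in large part they restate the differences between lines. Of 16938 other genes, those most like FOSL1 were DUSP6, the ERK phosphatase (r = 0.997), PLK3 (0.997) and VEGFC (0.997). SPRED1, an inhibitor of the RAS pathway, was nearest to FOS (0.996), before MFSD2A (0.996) and CHST8 (0.994). EMP1 was nearest to FOSB (0.999), before LIF (0.998) and C11orf96 (0.998). JUNB was most like LOC100287177 (0.999), FLCN (0.998) and a probe with no gene name (0.998), BATF3 most like MSX1 (0.998), SYAP1 (0.995) and CCDC50 (0.995), and MAFF most like SRPX2 (0.999), LOC100499467 (0.998) and MYO10 (0.997). Of these genes, CHST8, PLK3, LIF, LOC100287177, FLCN, MSX1, CCDC50 and MYO10 were not called in K57N against WT, and the others were. LOC100287177 differed by 0.82 and FLCN by 0.72 (adjusted p = 0.562 and 0.688, limma).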

How the data were processed

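Gene expression was measured on 9 single-dye Agilent human arrays, 3 per line. Per array, the authors deposited processed signal intensity from Agilent Feature Extraction 10.10.1.1, background subtracted and not scaled between arrays, together with mean and background intensity. They also deposited log2 values, which equalled the log2 processed signal minus 1 constant for each array (100% of probes, tolerance 0.02) and whose centring is not stated.

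Here, log2 processed signals were expressed relative to the 75th percentile of the 58716 spots on each array that were not controls. Between 278 and 501 spots per array marked as uneven or outliers were left out, and repeated spots were averaged. Probes well above background in every replicate of at least 1 line were tested (25397 probes, 19107 genes) with R 4.3.3 and limma 3.58.1. The model held a mean for each line, with Benjamini-Hochberg adjustment. The tested probe with the highest mean signal represented a gene. The procedure was tested on simulated data. Every member is named, with up to 8 called genes of each other list by size and the 3 genes most like each called member. PLAUR, PLAU, CD44, LIF, DUSP1, EZR, VIM, JDP2, DDIT3, PPP1R15A and TRIB3 fall outside this rule and were chosen after their values were seen. Older symbols were matched through RefSeq for CXCL8, MRTFA and MRTFB, and LYZ had no probe under its name. The members and lists were chosen with earlier results of these data known.

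Of the listed markers of leukocytes, fibroblasts and endothelium, 3 of 5, 1 of 5 and 2 of 3 were well above background on all 9 arrays. VIM is in both the target list and the HEK293 list. With line means removed, the correlation across genes between same-numbered arrays was 0.35 to 0.88 in all 9 pairs, so the numbers pair the arrays. The slides contribute to this. The source label of 2 WT samples names the cell line differently from their other fields.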

Additional observations from a re-analysis of the deposited data

How the results depend on the processing

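The 6 called genes kept the sign of their difference in all 3 comparisons under every alternative run. In K57N against WT the 6 calls held under normexp background correction, quantile normalization, the deposited log2 table, the slide block and the replicate block, and 5 held without a filter on dim probes. The Student's t-test after adjustment called 1. The paired analysis, with the replicate number as a block, also gave 6 in K57N against F53S and changed no other member call, while higher calls over all genes numbered 481 against 290 in K57N against WT and 348 against 183 in K57N against F53S. In K57N against F53S the count was 1 without the filter, 3 when only those 2 lines were fitted and 4 under normexp. The same count was 0 with the t-test after adjustment (6 before it) and 1 to 6 with single arrays left out. In F53S against WT it was 2 at an unadjusted p with limma and with the t-test. Target genes called in K57N numbered 6 with probes well above background on all 9 arrays and 5 with the adjusted t-test.

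Over all genes, K57N against WT gave 145 higher calls under normexp, 140 without the filter, 156 with the all-array filter, 490 with the slide block, 494 on slide 2, 82 with the adjusted t-test and 497 at an unadjusted p, and 156 to 322 with 1 array left out. F53S against WT gave 0, but 1 under normexp and 3 without WT replicate 1. K57N against F53S gave 183 higher calls, 62 without the filter, 72 under normexp, 24 with the adjusted t-test and 66 to 178 with 1 array left out, but 361 with the slide block, 352 on slide 2, 331 with the unadjusted t-test and 380 at an unadjusted p.

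Genes that were not called changed sign. ATF3 in K57N against WT was 0.061 under normexp, 0.011 in the deposited table and 0.10 as the mean of its probes, and against F53S it was -0.17 on slide 2. JUND in K57N against F53S was 0.027 under normexp, 0.029 under quantile normalization and 0.029 in the deposited table. With single arrays left out, K57N against WT ranged from -0.77 to 0.012 for JUN, -0.30 to 0.19 for JUND and -0.50 to 0.23 for ATF3. F53S against WT ranged from -0.076 to 0.12 for FOSL2, -0.63 to 0.23 for JUN, -0.28 to 0.20 for JUND and -0.33 to 0.015 for ATF3. K57N against F53S ranged from -0.60 to 0.25 for JUN, -0.25 to 0.22 for JUND and -0.33 to 0.40 for ATF3. The cause of these changes was not tested. Leaving out 1 array unbalances the slides. The number of arrays limits the precision.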

Other observations

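Stress programs that ATF3 is often grouped with were also read. Of 11 genes of the ATF4 pathway, the integrated stress response, all were tested and none was called in any comparison, with a median log2 difference of 0.42 in K57N against WT and 0.04 in F53S against WT. With the slide as a block PPP1R15A (1.36, adjusted p = 0.00909) and TRIB3 (1.35, adjusted p = 0.0172) were called higher in K57N, 2 of 11 against 2.56% of all genes. PPP1R15A read 0.68, 0.13 and 0.02 in WT and 2.79, 1.12 and 1.004 in K57N. Of 8 heat shock genes none was called, with a median of 0.28 in K57N against WT. Over all genes 1.52% were called higher and 0.738% lower in K57N against WT, so that a count of 0 without the block in lists this small is near the background.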
